A study of Mus musculus with 9 samples.

Results

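The nuclear genes behind 3 enzymes of oxidative phosphorylation, namely complex I (NADH dehydrogenase), complex III (the cytochrome bc1 complex) and complex V (ATP synthase), were followed in ventricular RNA from newborn mice. Members were all protein-coding genes whose symbol begins with Nduf, Uqcr or Atp5, together with Cyc1. This rule took 72 of the 38293 genes in the count table, and all 72 passed the filter on low counts that left 15318 genes for testing. Of the 72, 36 encode subunits of complex I, 9 subunits of complex III and 16 subunits of complex V. The other 11 carry a matching symbol without being subunits of these enzymes: the 8 complex I assembly factors Ndufaf1 to Ndufaf8, the pair Ndufa4 and Ndufa4l2, which are assigned to complex IV, and Atp5s, a coupling factor associated with ATP synthase. Genes named otherwise, such as the ATP synthase inhibitor Atpif1, were not members.

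Both groups were ventricles of mice at postnatal day 7 on a C57B/6J background, and both were homozygous for the floxed Arid1a allele (f/f). The 5 control samples had no Cre. The 4 samples labelled aMHC-Cre;Arid1a f/f cKO also carried a Cre transgene under the cardiomyocyte promoter αMHC, so that deletion is directed to cardiomyocytes while fibroblasts, endothelium and other ventricular cells keep the gene. No Cre-only group was among the samples, and an effect of Cre itself cannot be told apart from loss of Arid1a. The Arid1a protein binds DNA and belongs to SWI/SNF, a remodeler of nucleosomes. Its whole-gene level was 128 to 148 CPM (the count of a gene relative to library size, scaled by TMM, which equalises libraries on the bulk of their genes) in control and 100.3 to 113 CPM in cKO, a log2 fold change of -0.39 (adjusted p = 0.00132, SE 0.06, by edgeR's quasi-likelihood test with Benjamini-Hochberg adjustment, as for all p-values without another name).

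Depth was similar, with 31011055 to 40073801 counts per library. The libraries stood apart in 3 ways. The ribosomal protein gene copy Rps3a3 lay at 0.345 to 0.521 CPM in control replicates 1 and 2 and cKO replicates 1 to 3 (the Rps3a3-low libraries) and at 99.7 to 112 CPM in control replicates 3 to 5 and cKO replicate 4 (the Rps3a3-high libraries). Libraries also differed in how level depends on the GC content of a gene: between genes of 42% and 56% GC, the trend rose by 0.41 on the log2 scale in cKO replicate 2 and by 0.22 in control replicate 1, and fell by 0.30 in control replicate 4. The trend on exon length was weaker and went partly with the groups: between genes of 5000 and 1000 bases it rose by 0.016 to 0.137 in the 4 cKO libraries and by 0.041 to 0.047 in control replicates 1 and 2, and differed by -0.13 to -0.015 in control replicates 3 to 5. Values that bear on these are given beside the results and under the alternatives. Differences within a library set are cKO minus control means of log2 CPM (with 0.5 added), without a fit or test. Among the Rps3a3-high libraries they rest on cKO replicate 4 alone and have no spread for cKO.

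Complex I passes electrons from NADH to ubiquinone. Its peripheral arm holds the N module, which oxidises NADH, and the Q module, which reduces ubiquinone, and its membrane arm pumps protons. Complex III passes the electrons on to cytochrome c through its Rieske iron-sulfur protein and cytochrome c1. Complex V lets protons flow back through a ring of c subunits, and the rotation drives ATP synthesis in the F1 head, which a peripheral stalk holds in place. Each enzyme combines nuclear subunits with a few encoded by mitochondrial DNA, and in the heart the set is abundant and increases after birth as cardiomyocytes turn to fatty acid oxidation.

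In cKO, 8 members, all of them subunits, were lower at an adjusted p under 0.05, and 0 were higher. The 8 were Ndufs1, Ndufa10 and Ndufab1 of complex I, Uqcrc2 and Uqcrfs1 of complex III, and Atp5b, Atp5c1 and Atp5h of complex V. Over all genes tested, 8.03% were lower and 8.25% were higher at the same threshold, against 11.1% and 0 of the members. At an unadjusted p under 0.05, 23 members were lower and 5 were higher, where 14.5% of all genes were lower and 15.2% higher. With a fold change over 1.5 asked for as well, 0 members were called in this fit, against 6.72% of all genes. DESeq2's Wald test, the kind of test the study used, put 16 members lower and 1 higher, where 8.98% and 9.0% of all genes were, and 2 passed the fold threshold (Ndufs5 and Ndufaf8, against 6.96% of all genes). The changes were small: the 8 lay between -0.23 and -0.38 on the log2 scale, which is 15.0% to 23.0% less RNA. In whole ventricle, fewer cells of a type and less RNA per cell cannot be told apart. The median log2 fold change was -0.11 over the 72 members and 0.0094 over all genes, and 47 members were below 0 and 25 above. For 8 members all cKO libraries were under all controls, as for 8.58% of all genes, and for 2 members they were above, as for 8.16% of all genes.

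**Figure D1:**
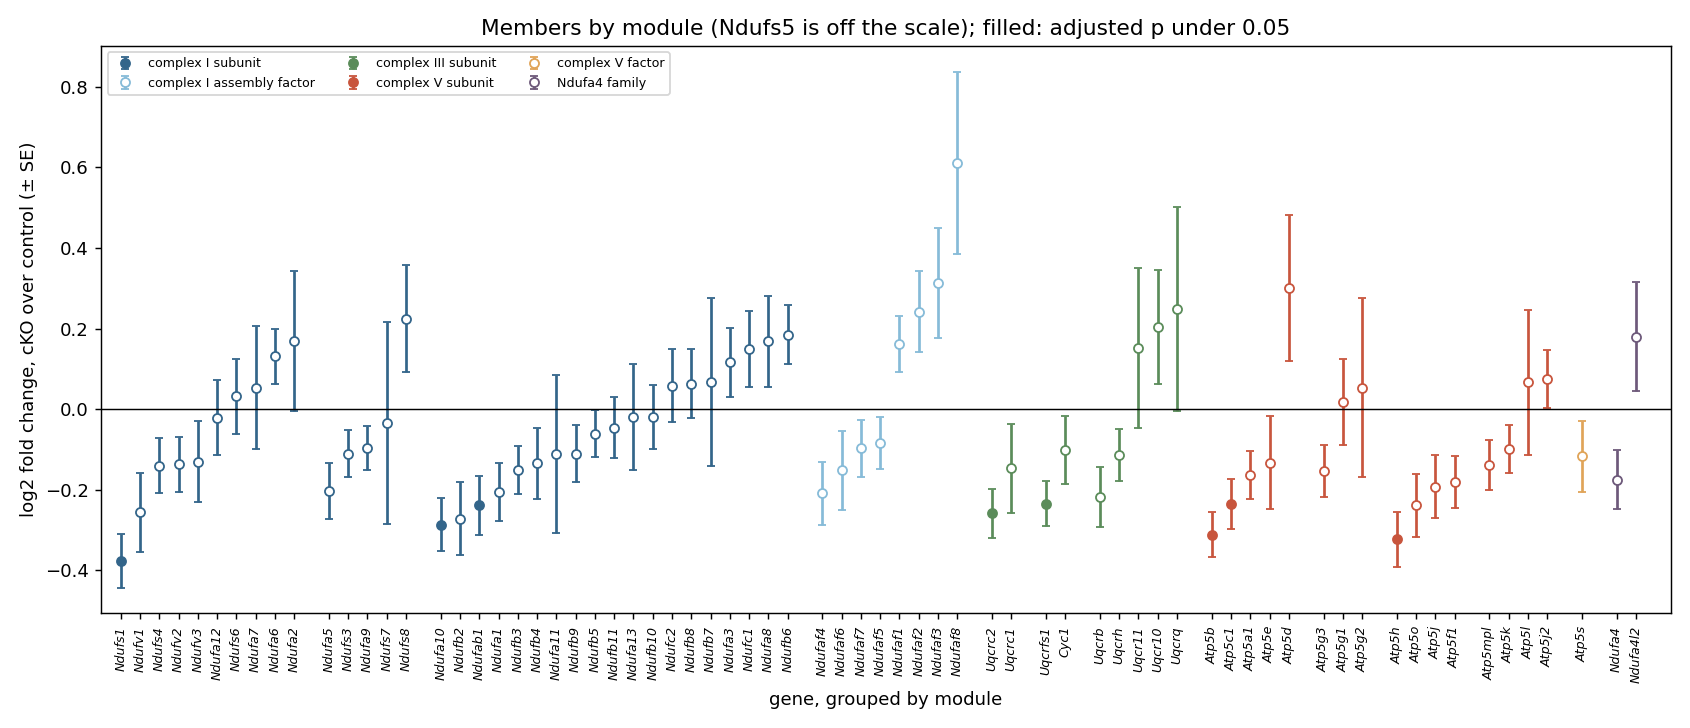
Log2 fold change of cKO (n = 4) over control (n = 5) for the members named on the horizontal axis, on the vertical axis, with bars of 1 SE; genes are grouped by module and coloured by complex. Filled points mark the 8 members at an adjusted p under 0.05, which all lie between -0.23 and -0.38, while Ndufs5 (-2.68, SE 1.01) is off the scale.

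Summed over its genes, complex V was the only one of the 3 complexes whose groups did not overlap. Its 16 subunits together were at 17468 ± 970.1 CPM (SD, n = 5) in control and 15232 ± 344 CPM (SD, n = 4) in cKO, with ranges of 15917 to 18589 CPM in control and 14742 to 15503 CPM in cKO. The 36 complex I subunits summed to 8790.1 ± 663 CPM (SD, n = 5) in control and 8218 ± 495 CPM (SD, n = 4) in cKO, and the 9 complex III subunits to 4825 ± 357 CPM (SD, n = 5) in control and 4418 ± 256 CPM (SD, n = 4) in cKO. In both the groups overlapped, with control replicate 5 lowest among controls. The 8 assembly factors summed to 241 to 269 CPM in control and 244 to 251 CPM in cKO. Relative to control these sums differed by -12.8% for complex V, -6.51% for complex I, -8.42% for complex III and -1.43% for the assembly factors, and no test was made on sums. Atp5a1 and Atp5b made up most of the complex V sum, and 5 of its 16 subunits had a log2 fold change above 0. Sums also did not overlap for complex II (2842 to 3078 CPM in control, 2311 to 2425 CPM in cKO) and the mitochondrially encoded genes (120903 to 138223 and 94662 to 120811 CPM). For complex IV they overlapped (5110 to 6421 and 5234 to 6217 CPM).

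**Figure D2:**
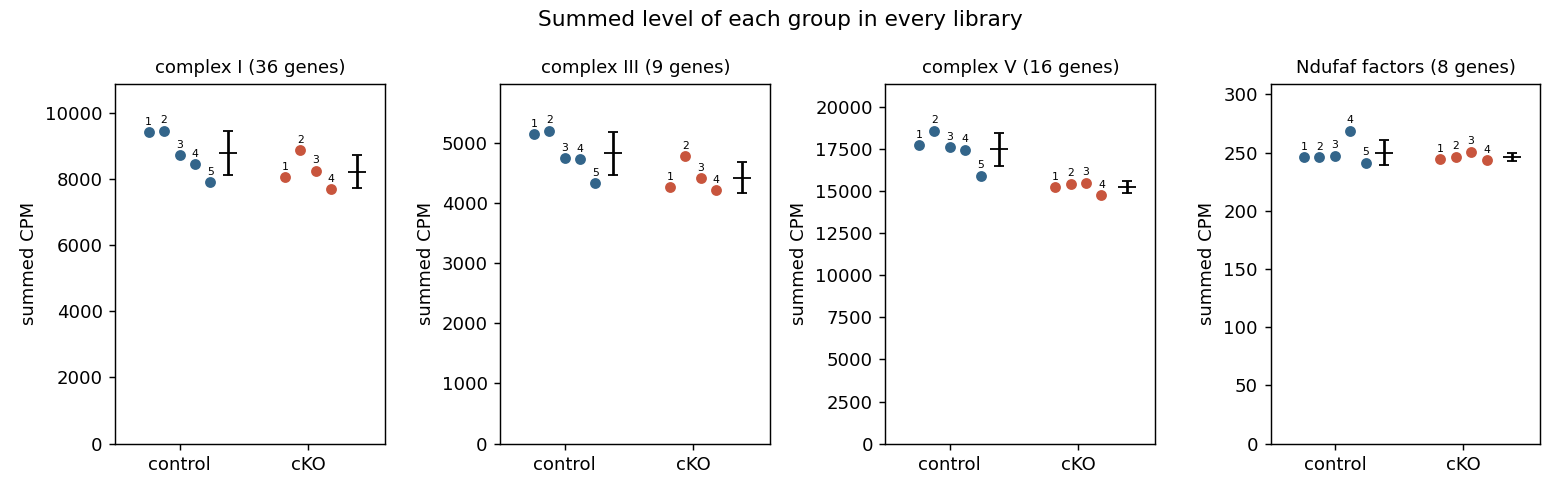
Summed CPM (vertical axis, from 0) of complex I, complex III and complex V subunits and of the Ndufaf assembly factors, 1 point per library, numbered by replicate, with the mean ± SD beside the points. Only for complex V do the 4 cKO libraries (14742 to 15503) all lie under the 5 control libraries (15917 to 18589).

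Among the 10 subunits of the N module of complex I, 1 passed the test. Ndufs1 (ENSMUSG00000025968, GRCm38 chr1:63143596-63176833), the largest subunit and carrier of iron-sulfur clusters, was at 713, 752, 727, 819.7 and 754 CPM in controls 1 to 5 and 613, 519.6, 599 and 591 CPM in cKO 1 to 4. All cKO libraries lay under all controls, and cKO replicate 2 was lowest. Ndufs1 had a log2 fold change of -0.38 (adjusted p = 0.00255, SE 0.07), the largest drop among the 8. It differed by -0.35 among the Rps3a3-low libraries and by -0.37 among the Rps3a3-high libraries, where cKO replicate 4 stands alone. Ndufv1, which holds the NADH binding site, was at 652, 653, 542, 509 and 511 CPM in controls 1 to 5 and 448, 548, 482 and 443 CPM in cKO 1 to 4. Its groups overlapped, with cKO replicate 2 above control replicates 3 to 5, and its log2 fold change of -0.26 (adjusted p = 0.102, SE 0.10) did not pass. With the trends on GC content and gene length removed, Ndufv1 had an adjusted p of 0.000322 at -0.35. The other 8 N module genes lay between -0.14 (Ndufs4) and 0.17 (Ndufa2) and none passed, and the module's median was -0.08.

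None of the 6 Q module genes passed. The iron-sulfur subunits Ndufs7 and Ndufs8 were uneven between libraries of 1 group. Ndufs7 was at 176, 148, 106, 91.0 and 107 CPM in controls 1 to 5 and 96.4, 180.2, 112 and 102 CPM in cKO 1 to 4, so that the highest control and the highest cKO library were alike and control replicates 3 to 5 matched the rest of the cKO group. Its log2 fold change of -0.03 (adjusted p = 0.942, SE 0.25) has an SE several times that of Ndufs1. Ndufs8 was at 168, 153, 126, 119.8 and 113 CPM in controls 1 to 5 and 139.5, 196, 155 and 145 CPM in cKO 1 to 4, a log2 fold change of 0.22 (adjusted p = 0.291, SE 0.13), the most positive value among the complex I subunits.

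Of the 20 membrane arm subunits, 2 passed. Ndufa10 (ENSMUSG00000026260, chr1:92439010-92473860), an accessory subunit related to nucleoside kinases, was at 539, 577, 523, 518 and 465 CPM in controls 1 to 5 and 416, 437, 439.7 and 427 CPM in cKO 1 to 4. The groups did not overlap and the cKO libraries were close together. Ndufa10 had a log2 fold change of -0.29 (adjusted p = 0.0112, SE 0.07) and differed by -0.37 among the Rps3a3-low libraries and -0.23 among the Rps3a3-high libraries. Ndufab1 (ENSMUSG00000030869, chr7:122085403-122101886), the mitochondrial acyl carrier protein, was at 137, 143, 146, 154 and 135 CPM in controls 1 to 5 and 137, 107, 123 and 118 CPM in cKO 1 to 4, and cKO replicate 1 lay within the control range. Its log2 fold change of -0.24 (adjusted p = 0.0467, SE 0.07) had the highest adjusted p of the 8. Ndufab1 passed in 1 of the 9 fits that leave out a library, the one without cKO replicate 1, and its adjusted p ran from 0.0127 to 0.385 over the alternatives. Leaving Ndufs5 aside, the other members of the membrane arm ran from -0.27 (Ndufb2) to 0.19 (Ndufb6). For Ndufb6, singled out after its values were seen, all 4 cKO libraries lay above the controls, yet its adjusted p was 0.116.

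The biggest difference among all members, that of Ndufs5, came from 2 control libraries. Ndufs5 (chr4:123712710-123718202), a small membrane arm subunit, was at 21.9, 20.7, 2.08, 1.89 and 1.78 CPM in controls 1 to 5 and 1.87, 1.41, 1.39 and 1.38 CPM in cKO 1 to 4. Control replicates 1 and 2 stood 11.1-fold above control replicates 3 to 5, which lay near the cKO libraries, and the log2 fold change of -2.68 (adjusted p = 0.124, SE 1.01) did not pass. It passed in DESeq2 (adjusted p = 0.017), in the model with a term for library set (adjusted p = 0.0198) and among the Rps3a3-low libraries alone (adjusted p = 0.000104), which include control replicates 1 and 2 as the only controls. A processed copy of Ndufs5, the pseudogene BC002163 (chr16:42955631-42955949), was counted at a higher level than Ndufs5 in every library. How reads were assigned between the pair was not tested. BC002163 was at 37.1, 38.5, 74.9, 67.6 and 64.8 CPM in controls 1 to 5 and 65.4, 71.7, 67.4 and 70.0 CPM in cKO 1 to 4. It was lowest in the same 2 control libraries in which Ndufs5 was highest, and the sum of both was 66.2 ± 7.58 CPM (SD, n = 5) in control and 70.1 ± 2.59 CPM (SD, n = 4) in cKO.

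The transcripts show how close the pair is. All 319 bases of the copy align within the coding part of Ndufs5 with 317 identical bases (99.4%) and 0 gaps. The stretch from coding base 6 to 105 is given for both, from the GENCODE M21 transcripts, 5′ to 3′, with the 2 differing bases in capitals, because single-end reads of 75 bases that cover neither of these bases are identical in the pair.
Ndufs5: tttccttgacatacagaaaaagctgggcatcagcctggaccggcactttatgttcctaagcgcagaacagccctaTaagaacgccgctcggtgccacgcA
BC002163: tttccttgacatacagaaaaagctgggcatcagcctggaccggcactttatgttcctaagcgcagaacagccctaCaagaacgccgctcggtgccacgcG
Ndufa12, an N module subunit named here after its values were seen, has a copy of the same kind, the pseudogene Gm15920 (chr5:130188395-130188796), identical at 400 of 402 aligned bases (99.5%). Coding bases 37 to 136 are shown with the only differing base of the stretch in capitals.
Ndufa12: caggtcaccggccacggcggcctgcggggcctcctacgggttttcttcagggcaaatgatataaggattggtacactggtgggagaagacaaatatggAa
Gm15920: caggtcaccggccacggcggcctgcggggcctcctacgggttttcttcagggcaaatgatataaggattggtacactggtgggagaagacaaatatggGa
Gm15920 was at 26.8, 28.8, 1.14, 28.1 and 1.002 CPM in controls 1 to 5 and 26.8, 26.8, 55.9 and 1.23 CPM in cKO 1 to 4. It fell into 3 steps, near 1 CPM in control replicates 3 and 5 and cKO replicate 4, near 27 CPM in 5 libraries and at 55.9 CPM in cKO replicate 3, which was also the library with the lowest Ndufa12. Ndufa12 itself ran at 69.5 to 85.5 CPM in control and 62.9 to 86.7 CPM in cKO, with a log2 fold change of -0.02 (adjusted p = 0.900, SE 0.09). In all, 31 of the 72 members share at least 1 window of 75 bases with an annotated transcript of another gene, and 13 share over 20% of their windows. Atp5l shares 76.0% and was counted at only 3.25 to 4.11 CPM in control and 2.996 to 5.19 CPM in cKO. These members are uncertain, since how the counting treated such reads is not stated.

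**Figure D3:**
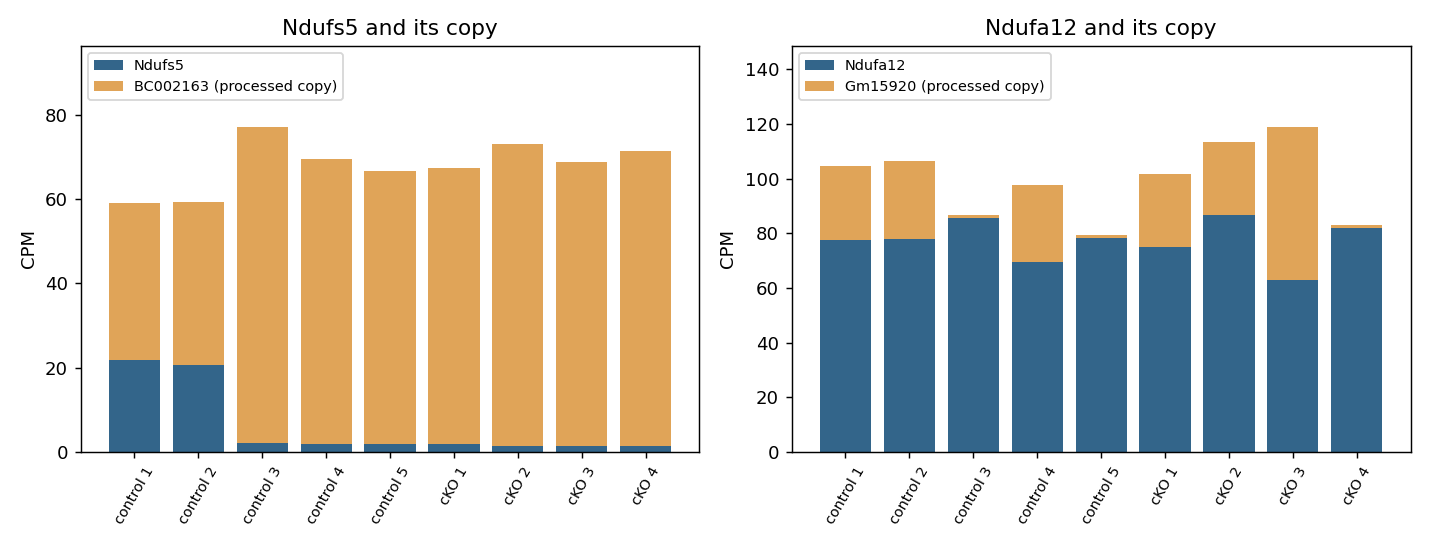
Stacked bars of CPM (vertical axis, from 0) for Ndufs5 with its copy BC002163 and for Ndufa12 with its copy Gm15920, 1 bar per library. Ndufs5 is 20.7 to 21.9 CPM in control replicates 1 and 2 and 1.38 to 2.08 CPM in the other 7 libraries, and Gm15920 ranges from 1.002 to 55.9 CPM.

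The 8 assembly factors, which build complex I without staying in it, had 0 members that passed. Their median was 0.04, with 4 below and 4 above 0. Ndufaf8, an assembly factor for the Q module, was at 7.13, 5.97, 4.16, 4.53 and 4.46 CPM in controls 1 to 5 and 6.66, 12.01, 7.71 and 5.71 CPM in cKO 1 to 4, and cKO replicate 2 was highest. Its log2 fold change of 0.61 (adjusted p = 0.0911, SE 0.23) was the most positive of all members, and its SE was also among the widest. Without control replicate 1 its adjusted p was 0.0432 and Ndufaf2 passed as well. In DESeq2 the adjusted p of Ndufaf8 was 0.0465. Without cKO replicate 2 its log2 fold change was 0.35, with an adjusted p of 0.295. Ndufaf4 was at 87.0, 84.0, 94.0, 108 and 92.2 CPM in controls 1 to 5 and 85.6, 74.8, 81.7 and 79.8 CPM in cKO 1 to 4, a log2 fold change of -0.21 (adjusted p = 0.0931, SE 0.08) in the other direction. Ndufaf1, likewise singled out, was at a higher level in every cKO library than in any control (39.9 to 46.1 CPM in control and 46.4 to 51.7 CPM in cKO), with an adjusted p of 0.139.

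In complex III, 2 of the 9 subunits were lower. Uqcrc2 (ENSMUSG00000030884, chr7:120635176-120659524), one of a pair of core proteins of the matrix side, was at 971, 1034, 1007, 1077 and 949 CPM in controls 1 to 5 and 849.6, 784, 873 and 862 CPM in cKO 1 to 4. The lowest control stood above the highest cKO library. Uqcrc2 shares 22.8% of its windows of 75 bases with transcripts of other genes. It had a log2 fold change of -0.26 (adjusted p = 0.0123, SE 0.06) and differed by -0.26 among the Rps3a3-low libraries and -0.23 among the Rps3a3-high libraries. Uqcrfs1 (ENSMUSG00000038462, chr13:30540308-30545362), the Rieske iron-sulfur protein, was at 614, 624, 614, 614 and 558 CPM in controls 1 to 5 and 516, 515, 525 and 501 CPM in cKO 1 to 4. All cKO libraries lay below the controls, of which replicate 5 was lowest. Uqcrfs1 had a log2 fold change of -0.23 (adjusted p = 0.0121, SE 0.05) and differed by -0.26 among the Rps3a3-low libraries and -0.25 among the Rps3a3-high libraries.

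The partners of these genes did not pass. Uqcrc1, the other core protein, was at 1001, 988, 785, 773 and 755 CPM in controls 1 to 5 and 709, 928, 755 and 716 CPM in cKO 1 to 4, where control replicates 1 and 2 and cKO replicate 2 stood above the rest. It had a log2 fold change of -0.15 (adjusted p = 0.410, SE 0.11). Cyc1, cytochrome c1, was at 845, 828, 719, 719 and 659 CPM in controls 1 to 5 and 657, 781, 700.4 and 674 CPM in cKO 1 to 4, a log2 fold change of -0.10 (adjusted p = 0.462, SE 0.08). Both were lower at an adjusted p under 0.05 with GC and length trends removed, Uqcrc1 at -0.20 (adjusted p = 0.0473) and Cyc1 at -0.26 (adjusted p = 0.01000). The 5 small accessory subunits had a median of 0.15 with 2 below and 3 above 0. Uqcrq was the most positive of complex III, at 225, 210.3, 144, 137 and 132 CPM in controls 1 to 5 and 176, 305, 180.2 and 146 CPM in cKO 1 to 4. The cKO mean rested on replicate 2, and its log2 fold change of 0.25 (adjusted p = 0.564, SE 0.25) turned to -0.021 without that library.

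In complex V, 2 of the 5 F1 subunits and 1 of the 4 stalk subunits were lower. Atp5b (ENSMUSG00000025393, chr10:128083273-128090391), the catalytic β subunit and the member with the highest CPM, was at 5159.9, 5495, 5237, 5225 and 4853 CPM in controls 1 to 5 and 4139.8, 4108, 4342 and 4151 CPM in cKO 1 to 4. The groups did not overlap, and the cKO libraries lay within a narrow band. Atp5b had a log2 fold change of -0.31 (adjusted p = 0.00300, SE 0.06) and differed by -0.34 among the Rps3a3-low libraries and -0.30 among the Rps3a3-high libraries. Together with Ndufa10 it was one of the 2 members of the 8 that also passed among the Rps3a3-low libraries alone, where 2 controls face 3 cKO. Atp5a1, the α subunit that alternates with β in the F1 head, was at 4228, 4434, 4105, 4103 and 3808 CPM in controls 1 to 5 and 3587, 3763, 3682 and 3735 CPM in cKO 1 to 4. Here too the groups did not overlap, but the log2 fold change of -0.16 (adjusted p = 0.0837, SE 0.06) did not pass, though it did in DESeq2 (adjusted p = 0.0238).

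Atp5c1 (ENSMUSG00000025781, chr2:10056016-10080510), the γ subunit that forms the rotating shaft, was at 1102, 1177, 1206, 1191 and 1046 CPM in controls 1 to 5 and 994, 934, 1014 and 943 CPM in cKO 1 to 4. The lowest control, replicate 5, was just above the highest cKO library. Atp5c1 had a log2 fold change of -0.24 (adjusted p = 0.0218, SE 0.06), differed by -0.22 among the Rps3a3-low libraries and -0.28 among the Rps3a3-high libraries, and passed in 4 of 9 fits without 1 library. It did not pass without control replicate 2, 3 or 4 or cKO replicate 2 or 4, at adjusted p values of 0.050009 to 0.0603. Atp5d, the δ subunit of the F1 shaft, was the most positive of complex V at 432, 398, 290.2, 272 and 268 CPM in controls 1 to 5 and 339, 539, 383 and 376 CPM in cKO 1 to 4. Its cKO replicate 2 was 1.47-fold above the other cKO libraries, control replicates 1 and 2 exceeded controls 3 to 5, and its log2 fold change of 0.30 (adjusted p = 0.301, SE 0.18) did not pass.

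The 4 stalk subunits were all below 0, with a median of -0.22. Atp5h (ENSMUSG00000034566, chr11:115415689-115419962), subunit d of the stalk, was at 778, 848, 857, 827 and 722 CPM in controls 1 to 5 and 687, 624, 661 and 607 CPM in cKO 1 to 4. The groups did not overlap. Atp5h had a log2 fold change of -0.32 (adjusted p = 0.00684, SE 0.07) and differed by -0.31 among the Rps3a3-low libraries and -0.40 among the Rps3a3-high libraries. It shares 27.1% of its windows with other transcripts, among them the pseudogene Gm10250, which was counted at 6.13 to 11.1 CPM. The sum of Atp5h and Gm10250 was 815 ± 57.0 CPM (SD, n = 5) in control and 653 ± 36.6 CPM (SD, n = 4) in cKO. The stalk subunits Atp5o (OSCP), Atp5j and Atp5f1 had log2 fold changes of -0.24, -0.19 and -0.18 with adjusted p values of 0.0570, 0.125 and 0.0813. The 4 small membrane subunits ran from -0.14 (Atp5mpl) to 0.08 (Atp5j2), and 0 passed.

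The c ring is made of 1 protein encoded by 3 genes. Atp5g3 was at 1595, 1626, 1598, 1563 and 1428 CPM in controls 1 to 5 and 1484, 1415, 1443 and 1274 CPM in cKO 1 to 4, a log2 fold change of -0.15 (adjusted p = 0.135, SE 0.06). Atp5g1 was at 551, 515, 428, 409 and 396 CPM in controls 1 to 5 and 438, 536, 459.7 and 429 CPM in cKO 1 to 4 and had overlapping groups. Atp5g2 was at 33.0, 27.5, 19.9999, 17.5 and 18.4 CPM in controls 1 to 5 and 18.9, 33.6, 21.7 and 22.5 CPM in cKO 1 to 4, highest in control 1 and cKO 2. Their log2 fold changes were 0.018 (adjusted p = 0.930) and 0.053 (adjusted p = 0.900), and both changed sign under some alternatives. Of the CPM of the 3 genes, Atp5g3 made up 76.5% ± 2.29 in control and 74.2% ± 2.18 in cKO (SD, n = 5 and 4), and Atp5g1 22.4% ± 2.03 and 24.6% ± 1.87. The shares of the groups overlapped for all 3 genes.

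**Figure D4:**
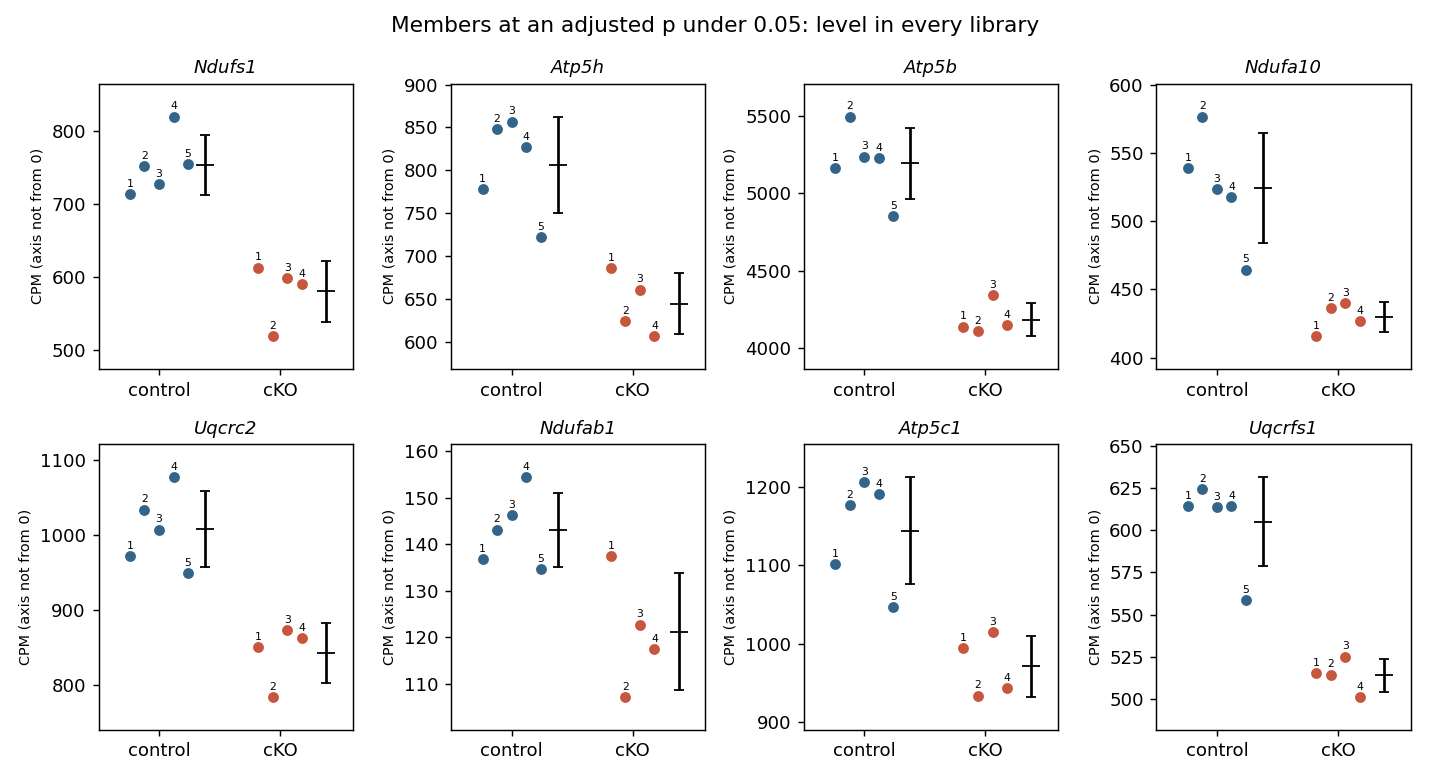
Level in CPM (vertical axes, which do not start at 0) of the 8 members at an adjusted p under 0.05, 1 point per library, numbered by replicate, with the mean ± SD beside the points. The groups do not overlap for 7 of the 8, and for Ndufab1 cKO replicate 1 (137 CPM) lies among the controls (135 to 154 CPM).

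Ndufa4, once counted with complex I and now with complex IV, was at 762, 839, 825, 783 and 717 CPM in controls 1 to 5 and 772, 661, 716 and 632 CPM in cKO 1 to 4. It had a log2 fold change of -0.18 (adjusted p = 0.132, SE 0.07), and cKO replicate 1 was among the controls. Its paralog Ndufa4l2 was at 25.0, 22.2, 17.0, 18.8 and 18.9 CPM in controls 1 to 5 and 22.1, 28.9, 22.3 and 19.1 CPM in cKO 1 to 4, a log2 fold change of 0.18 (adjusted p = 0.408, SE 0.14). The coupling factor gene Atp5s was at 19.4 to 23.9 CPM in control and 18.4 to 22.6 CPM in cKO, a log2 fold change of -0.12 (adjusted p = 0.410, SE 0.09).

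Levels of different genes were compared per kilobase of exon sequence, as CPM per kb in control. Atp5a1 (1319 ± 72.5, SD, n = 5) and Atp5b (1226 ± 54.1) led, followed by Atp5g3 (716 ± 35.8), Atp5c1 (599.8 ± 35.6), Ndufa4 (569 ± 35.7) and Atp5h (551 ± 38.3). Neighbours in this order that lay within 1 SD of each other were Atp5c1, Ndufa4 and Atp5h. The order depends on the length used: per kb of the principal transcript, Atp5b (2711) and Atp5g3 (2160.4) stood above Atp5a1 (1674). Complex V gave 54.3% of the summed CPM of the 72 members, and Atp5a1 and Atp5b alone 29.0%. The assembly factors ran from 5.32 (Ndufaf2) to 29.1 CPM per kb of exon sequence (Ndufaf1), a range in which some subunits also lay, such as Atp5g2 at 13.9. On the principal transcript Ndufaf2 was at 23.4.

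The GC content of a member went with its spread between libraries. Over the 72 members, GC percent and the log2 ratio of cKO replicate 2 to the other cKO libraries had a Pearson r of 0.770 and a Spearman rho of 0.805 (n = 72), a description over genes that share their libraries. The 24 members of lowest GC (40.2% to 48.5%) had a median coefficient of variation of 6.31% among controls, and the 24 of highest GC (52.9% to 60.4%) one of 14.7%. The median log2 fold change was -0.15 in the lowest, -0.12 in the middle and 0.042 in the highest 24. These held 5, 3 and 0 of the 8 lower members. The 8 that passed are thus among the genes of low and middle GC, where the SE was also smaller (medians of 0.0698, 0.0746 and 0.122).

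When each library's trend on GC content and exon length was removed, an alternative chosen after the library values had been seen, 28 members were lower and 1, Ndufaf1, was higher. The 28 were 14 subunits of complex I, 6 of complex III, 7 of complex V and the assembly factor Ndufaf4, and they included all of the 8. Over all genes, 12.6% were then lower and 11.3% higher. The medians of the 3 GC classes were -0.15, -0.16 and -0.073. With the library set as a term in the model, 16 members were lower, 7 of the 8 among them, where 9.62% of all genes were lower. All 8 lay below 0 within both library sets, but they were picked as lower over these same libraries, so this adds no support. The Rps3a3-high set also holds cKO replicate 4 as its only cKO library. Over the 72 members the median difference was -0.14 among the Rps3a3-low and -0.092 among the Rps3a3-high libraries. Over all genes it was 0.0059 and 0.0019.

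**Figure D5:**
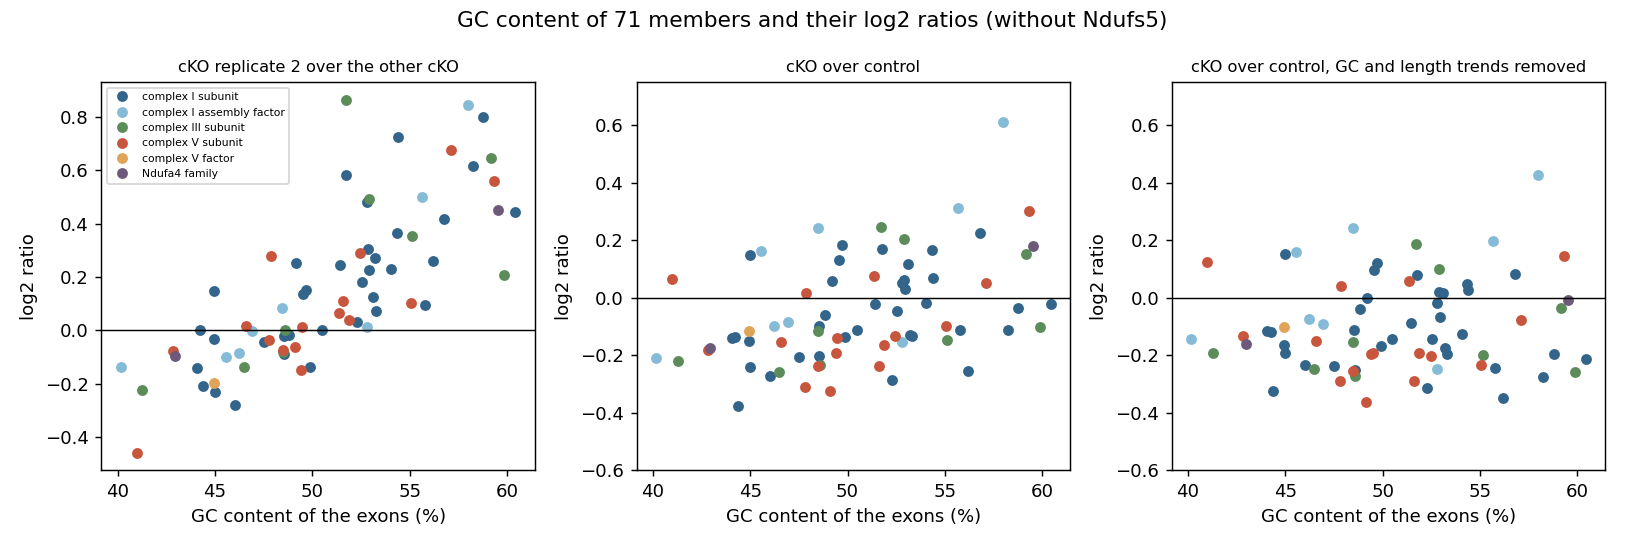
GC content of the exons (%) against the log2 ratio of cKO replicate 2 to the other cKO libraries (left), the log2 fold change of cKO over control (middle) and the same with GC and length trends removed (right), 1 point per member, without Ndufs5. Pearson r is 0.42 in the middle panel and 0.096 on the right (n = 71).

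Promoters were compared as windows of 300 bases, 250 before and 50 after the RefSeq gene start (GRCm38.p6), which were at hand for 58 of the 72 members (63 windows). The motifs of 4 factors known to act on respiratory genes were searched on both strands. NRF1 (GCATGCGC) was in 15.9% of member windows and 2.71% of all 32851 windows, YY1 (AAGATGGC) in 15.9% and 2.75%, GABPA (CCGGAAG) in 20.6% and 8.86%, and ERR (CAAGGTCA) in 4.76% and 1.56%. None of the 4 holds another, but the end of the GABPA motif can run into the start of the YY1 motif. Of the 8 lower members, 6 were in the table and 1, Atp5h, held any of the motifs. Of all 58 members 30 did, and the difference was not tested. A match is a description of letters and not a bound site. The sequences serve as examples with and without a motif: Atp5h with its GABPA motif (read on the other strand), Atp5b and Uqcrfs1 with none, and Atp5g2 and Ndufaf4 with overlapping NRF1 motifs on both strands. Each is 100 bases, 5′ to 3′ in the direction of the gene, with motifs in capitals, from chr11:115419920-115420019 (minus strand), chr10:128083207-128083306 (plus), chr13:30545317-30545416 (minus), chr15:102671048-102671147 (minus) and chr4:24897950-24898049 (plus). All end at the base before the RefSeq start except that of Ndufaf4, which ends 34 bases before it.
Atp5h: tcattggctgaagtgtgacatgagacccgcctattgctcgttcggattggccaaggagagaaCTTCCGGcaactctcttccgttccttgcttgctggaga
Atp5b: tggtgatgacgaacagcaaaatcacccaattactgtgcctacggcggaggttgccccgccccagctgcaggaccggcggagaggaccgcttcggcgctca
Uqcrfs1: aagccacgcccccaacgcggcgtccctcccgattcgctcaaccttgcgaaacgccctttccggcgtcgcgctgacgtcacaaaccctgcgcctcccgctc
Atp5g2: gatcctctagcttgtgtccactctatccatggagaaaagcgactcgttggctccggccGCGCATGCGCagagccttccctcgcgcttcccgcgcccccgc
Ndufaf4: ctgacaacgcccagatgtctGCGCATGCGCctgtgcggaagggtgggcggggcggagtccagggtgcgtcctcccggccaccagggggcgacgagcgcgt

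The rest of the respiratory chain gives the setting. Complex II, encoded wholly in the nucleus, had 3 of 4 genes lower, with the flavoprotein Sdha at -0.48 (adjusted p = 0.000152, SE 0.06) on the log2 scale, Sdhc at -0.30 (adjusted p = 0.00508, SE 0.06) and Sdhd at -0.23 (adjusted p = 0.0117, SE 0.05). Of 16 complex IV genes, 1 was lower (Cox6c, at -0.26 (adjusted p = 0.0184, SE 0.07)) and 3 were higher: the isoforms Cox6b2 at 1.73 (adjusted p = 9.69e-05, SE 0.19) and Cox6a1 at 0.92 (adjusted p = 0.000662, SE 0.13), and Cox8a at 0.47 (adjusted p = 0.00658, SE 0.10). Of 13 mitochondrially encoded protein genes, 7 could be tested and 2 were lower, mt-Co1 at -0.38 (adjusted p = 0.0113, SE 0.09) and mt-Nd5 at -0.27 (adjusted p = 0.0334, SE 0.08). The other 6 were at 0 to 0.145 CPM in every library. These counts are not read as absence of the transcripts, since how the counting treated reads shared between sequences is not stated. The cause was not tested. Cycs, the electron carrier cytochrome c, was at -0.04 (adjusted p = 0.730, SE 0.06).

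Of 22 listed assembly factors with other symbols, 20 could be matched to the table by symbol. Of these 2 were lower: Uqcc1, which acts on complex III, at -0.23 (adjusted p = 0.00683, SE 0.05), and Atpaf1, which acts on the F1 head of complex V, at -0.40 (adjusted p = 0.01998, SE 0.10). Among 8 regulators of mitochondrial genes 2 were lower and 0 higher. Perm1, a muscle regulator induced with PGC-1 and ERR, was at -0.31 (adjusted p = 0.0115, SE 0.07), and Gabpa, which encodes the factor of the GABPA motif, at -0.27 (adjusted p = 0.0493, SE 0.08). Ppargc1a had -0.21 (adjusted p = 0.268, SE 0.12) and Nrf1 -0.07 (adjusted p = 0.568, SE 0.07), and neither passed. The medians of the lists were -0.26 for complex II, -0.034 for complex IV, -0.26 for the mitochondrial genes, -0.063 for the assembly factors and -0.12 for the regulators.

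The 5 cardiomyocyte markers summed to 29348 to 35681 CPM in control and 27661 to 32581 CPM in cKO, and 0 of them passed. Of 5 fibroblast markers 3, Col1a1, Col1a2 and Tcf21, were higher. Pdgfra at 0.11 (adjusted p = 0.477, SE 0.10) and Dcn at -0.045 (adjusted p = 0.807, SE 0.10) on the log2 scale did not pass. The sum of the 5 was 2536 to 3275 CPM in control and 3406 to 4104 CPM in cKO, without overlap. Most of it came from the collagen genes Col1a1 and Col1a2. The 5 endothelial markers summed to 1275 to 1385 CPM in control and 1263 to 1351 CPM in cKO with 0 passing, and 0 of the mural, macrophage, erythroid and lymphocyte markers passed. All 5 macrophage and all 5 erythroid markers were above 0, with medians of 0.32 and 0.32 on the log2 scale. The medians were -0.074 for mural and 0.12 for lymphocyte markers. For each of these lists the sums of the groups overlapped. Of 5 atrial markers 4 were tested and 2, Nppa and Myl7, were higher. Myl4 was at 0.16 (adjusted p = 0.7101, SE 0.25) and Sln at -1.25 (adjusted p = 0.262, SE 0.67) on the log2 scale, and Bmp10 was at 0 to 0.194 CPM. Their sum, mostly Nppa, was 162 to 253 CPM in control and 901 to 2572 CPM in cKO. Of 5 skeletal muscle markers, Acta1 and Mybpc2 were higher, and the sum overlapped at 876 to 1543 CPM in control and 986 to 2015 CPM in cKO. The defining markers Myh4 and Myh1 were at 0 to 0.579 CPM. Of 5 brown fat markers 1, Cidea, could be tested and was higher, and it made up nearly all of a sum of 26.0 to 33.4 CPM in control and 49.2 to 59.4 CPM in cKO. Ucp1 was at 0 to 4.92 CPM and Adipoq at 0 to 0.492 CPM. The part of these differences in the lower members was not tested.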

How the data were processed

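RNA was measured in 5 control and 4 cKO samples of mouse ventricle. Per the labels and the submitters' processing notes, stranded mRNA libraries (TruSeq) were aligned to mm10 with STAR 2.4.2a and counted with HTSeq 0.6.1. The authors deposited raw counts per gene, whole numbers with no normalization. Which annotation was counted, and with which strand option, is not given in the sources used here, so genes with near-identical copies or overlapping partners are uncertain. The table held 0 columns of other samples and 0 rows naming no gene.

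Symbols, coordinates and lengths came from GENCODE M21. Counts were scaled by TMM, filtered by filterByExpr (minimum count 10) and tested for genotype over all 9 libraries with edgeR 4.0.16 (quasi-likelihood F test, two-sided, R 4.3.3), with Benjamini-Hochberg adjustment over 15318 genes. Genes passed at an adjusted p under 0.05, and a call also asks for a fold over 1.5, the study's threshold (used there with a Wald test). The SE is the size of the log2 fold change divided by the square root of F. The labels number the replicates, and the study's methods call its replicates biological. The p-values measure the spread between these samples. Library pairs of a group differed by more than counting noise (chi-square per degree of freedom of at least 9.56). Errors of CPM are SD between libraries.

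Alternatives were DESeq2 1.42.0, RLE and upper-quartile scaling, no filter or a mean of at least 1 CPM, the replicate block, the Rps3a3 library set as a term or its low libraries alone, removal of the gene length trend, and leaving out each library. Removal of GC content and length trends together (loess) was chosen after seeing the data. Members and lists were chosen with earlier results of these data known. Members given in every library were those that passed, the catalytic or defining subunits, the Ndufa4 pair, and the largest rise and fall in each complex among genes with a mean of at least 5 CPM. The values of 1 member are not reported here.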

Additional observations from a re-analysis of the deposited data

Results flagged for a closer look

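Of 50 groups of libraries examined, for 25 members in each genotype, 2 held a library far from the others by Dixon's test, where chance gives about 1 in 20. Ndufs5 in cKO replicate 1 was at 1.87 CPM, above the other cKO libraries (1.38 to 1.41 CPM), with a gap of 0.940 of the group's range. Uqcrfs1 in control replicate 5 was at 558 CPM, below the other controls (614 to 624 CPM), with a gap of 0.845 of the range. Without that library Uqcrfs1 still passed.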

How the results depend on the processing

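Of the 8 lower members, 6 (Atp5b, Atp5h, Ndufa10, Ndufs1, Uqcrc2 and Uqcrfs1) passed in all 9 fits without 1 library, Atp5c1 in 4 and Ndufab1 in 1. The count of lower members was 8 in the reported fit, 16 in DESeq2, 16 with the library set as a term, 3 in the Rps3a3-low libraries alone (where 2.87% of all genes were lower), 20 with the length trend removed (8.29%) and 28 with GC and length trends removed. It was 6 to 12 without 1 library, 7 with upper-quartile scaling, and 8 with RLE scaling, no filter or a mean of at least 1 CPM. For these fits the share of all genes that passed is not given, so their counts have no background beside them. In DESeq2 and with GC and length trends removed 1 member was higher, and without control replicate 1 there were 2 (0 to 2 without 1 library). By the fold rule, 2 members were called in DESeq2, 1 with the library set as a term (7.61% of all genes), 1 in the Rps3a3-low libraries (3.97%) and 1 without control replicate 1 (0 to 1 without 1 library). The median of the assembly factors was 0.039 and turned to -0.018 with the length trend removed, and without 1 library it was 0.019 to 0.053. The medians of complexes I, III and V were below 0 under every alternative run. For the 25 members given in every library, 212 values under the alternatives that do not leave out a single library kept direction and side of the threshold, 19 now passed, 10 no longer passed and 9 changed sign. Without 1 library, 198 kept both, 1 now passed, 13 no longer passed and 13 changed sign. Apart from removal of trends and the set term, whose construction shows what they change, the cause was not tested.

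Those that changed sign were all far from passing. Atp5g1 was -0.031 with the replicate block, -0.072 with the set term and -0.16 in the Rps3a3-low libraries, and -0.056 to 0.091 without 1 library. Atp5g2 was -0.012, -0.072 and -0.29 in the same fits, -0.018 with the length trend removed and -0.079 with GC and length trends removed, and -0.15 to 0.21 without 1 library. Ndufa4l2 was -0.0086 with GC and length trends removed. Ndufs7 ran from -0.28 to 0.12 and Uqcrq from -0.021 to 0.37 without 1 library.

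Replicates 1 to 4 share numbers between the groups. The deviations of same-numbered libraries correlated by 0.023, 0.036, 0.011 and 0.232, so the numbers do not show pairing. With the replicate block (8 libraries), 9 members were lower and 0 higher, 7 of the 8 among them, where 5.80% of all genes were lower. The depth of at least 31011055 counts leaves 3 members under 10 CPM in control.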
